A study of Mus musculus with 2 samples.

Results

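Myrf and Tmem98 are 2 of the 31053 genes in the deposited count tables, taken by gene symbol, and were followed across the cell classes of the newborn mouse eye. Single cells were captured from eye cups at postnatal day 0 (P0) from which cornea, lens and optic nerve were dissected away. In the control library both copies of Myrf carried loxP sites and no Cre was present (Myrf fl/fl), and in the mutant library the same floxed alleles were combined with Rx>cre (Rx>cre Myrf fl/fl), a transgene active in the embryonic eye field, the source of both neural retina and retinal pigment epithelium (RPE). Each library pooled 3 eye cups, and neither group carried wild-type Myrf alleles. There was 1 library per genotype, so no difference between genotypes has a replicate check, and every interval below covers counting error only.

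MYRF is a transcription factor made as a membrane protein. It assembles into trimers, cuts itself, and releases an N-terminal part that enters the nucleus and binds DNA, and it is best known for switching on myelin genes in oligodendrocytes. TMEM98 is a single-pass membrane protein that binds MYRF and restrains this self-cleavage. Variants of either gene are linked to small, short eyes (nanophthalmos), and both genes are expressed in the RPE, the pigmented layer that nourishes photoreceptors and faces the choroid.

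In the GENCODE M21 annotation of mm10 (GRCm38), Myrf (ENSMUSG00000036098) lies on the minus strand at chr19:10208272-10240748, with 27 exons in its first listed transcript. Tmem98 (ENSMUSG00000035413) lies on the plus strand at chr11:80810175-80822033, with 7 exons. No other annotated gene overlaps either locus. The libraries read the 3′ end of transcripts, and the position of the floxed segment within Myrf is not given in the sources used here, so mutant Myrf molecules from recombined and from intact alleles cannot be told apart.

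The promoter windows of RefSeq (GRCm38.p6, 250 bases before to 50 after the RefSeq start) were searched on both strands for the letters CTGGCAC and CTGGTAC, which are forms of the MYRF binding motif. At least 1 match occurred in 7.07% of the 27025 windows. The Tmem98 window held no match, and neither did those of Ermn, Wfikkn2 and Rgr, 3 RPE genes described further below. The Upk3b window held 1. The GENCODE start of Tmem98 is 80810175 and the RefSeq start 80810366, so the searched window reached only 59 bases before the GENCODE start. These 59 bases (chr11:80810116-80810174, plus strand) are shown because they are the sequence nearest to the member whose level is compared. The Upk3b stretch (chr5:136038409-136038435, plus strand) is shown because it carries the only match, in capitals, which starts 77 bases before the RefSeq start.
Tmem98, upstream of the start: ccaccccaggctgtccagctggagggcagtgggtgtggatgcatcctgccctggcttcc
Upk3b, around the match: agggtggctcCTGGCACccagagttca
These matches describe the letters of a short window and not a bound site.

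The control library held 79017429 unique molecular identifiers (UMIs, counts of captured transcripts) in 14305 barcodes, and the mutant library 76272867 in 12222. After filters, 12485 control and 10813 mutant barcodes remained, with medians of 4272 and 4821 UMIs. Classes were gated barcode by barcode from marker genes and are called "-like". The RPE gate used 10 markers, among them Pmel, Dct, Tyrp1, Ttr, Rlbp1 and Rpe65, and neither Myrf nor Tmem98. It took 386 control and 179 mutant barcodes, 9 of the 10 markers were found in at least 10% of them, and the genes that led them by fold were Ttr, Ptgds, Slc16a8 and Pmel. Depth differed, with a median of 3743.5 UMIs in control and 12616 in mutant RPE-like barcodes. The libraries shared 59 barcode sequences, of which 1 control and 2 mutant ones were RPE-like, and leaving them out moved none of the values recomputed without them beyond its counting interval.

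Transcripts of mesenchyme and of melanocytes were also counted in the RPE-like barcodes. Summed over 9 mesenchyme markers, the level there was 1457 CPM (counts of a gene per 1e6 UMIs of the class) in control and 263 CPM in mutant. Summed over 7 melanocyte markers not used for the RPE gate, it was 2322 and 1797 CPM, against 4886 and 5124 CPM in melanocyte-like cells. Pax3, a transcription factor of the neural crest melanocyte lineage, was counted in 10 of the 386 control and 7 of the 179 mutant RPE-like barcodes. These 17 barcodes held high Mlana (4454 and 3599 CPM), little Otx2 (20.6 and 7.24 CPM) and no Myrf UMI, so the results below are also given without them where they matter. The shallowest of them held 10865 UMIs in control and 8868 in mutant. Leaving out Pax3 barcodes therefore acts on deep barcodes only and can miss shallow melanocytes.

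Most Myrf transcripts of the control eye cup lay in RPE-like cells. Of 834 control Myrf UMIs, 731 fell in RPE-like barcodes, or 87.6% (exact binomial 95% interval 85.2 to 89.8%), although these made up 3.09% of the cells and 4.53% of all UMIs. Under the study's limit of 2000 UMIs per barcode the share was 56.4% (39.6 to 72.2%), or 22 of 39 UMIs. The level was 234 CPM (exact Poisson interval 217 to 252) in RPE-like cells and 1.57 CPM in all the rest. Retinal progenitor-like cells held 1.56 CPM (1.07 to 2.20), 150-fold less, and mesenchyme-like cells 1.02 CPM (0.604 to 1.61), 230-fold less. Pericyte-like cells held none of it, which at a floor of 3 counts places the RPE-like level at least 52.6-fold higher.

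Below the RPE-like cells, the order of Myrf levels could not be resolved. In the control library, melanocyte-like cells held 3 UMIs (7.25 CPM, 1.5 to 21.2), amacrine-like cells 5 (2.67 CPM, 0.868 to 6.24) and neurogenic-like cells, the newly committed retinal precursors, 11 (1.53 CPM, 0.762 to 2.73), and these intervals overlap those of progenitor-like and mesenchyme-like cells. Photoreceptor-like cells held 1 Myrf UMI. No barcode passed a gate for the oligodendrocyte lineage, where Myrf is best known.

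The low Myrf counts outside the RPE-like cells were set against 4 abundant RPE transcripts, Rgr, Rlbp1, Rpe65 and Ttr. This assumes that RNA set free from RPE cells keeps its genes in 1 ratio wherever it lands, which was not measured. The last 3 of these 4 genes are also markers of the RPE gate, so their counts outside it depend on the gate. Control RPE-like cells held 33.3 Myrf UMIs per 1000 UMIs of these genes (30.9 to 35.8), and all other control barcodes together 34.1 (27.8 to 41.3). Outside the gate the 4 genes were not even across control classes. They summed to 148 CPM in lens-like, 59.4 CPM in progenitor-like, 18.4 CPM in mesenchyme-like and 7.42 CPM in pericyte-like cells. Of their 3022 UMIs outside the gate, 867 lay in barcodes of no class. At the RPE ratio, 101 Myrf UMIs would lie outside the gate in sum, and 103 did. By class the counts lay on either side of it: progenitor-like cells held 32 Myrf UMIs where the ratio gives 40.5, photoreceptor-like cells 1 where it gives 5.02, neurogenic-like cells 11 where it gives 6.02, mesenchyme-like cells 18 where it gives 10.8 and amacrine-like cells 5 where it gives 0.931. The part of free RNA in each class was not tested. In the mutant the values were 18.3 (14.1 to 23.4) inside and 27.3 (19.7 to 36.9) outside. The 4 genes were themselves lower in mutant RPE-like cells, at 1459 CPM against 7037 CPM in control. The values of the 2 libraries therefore do not measure the fall of Myrf. Mutant mesenchyme-like cells held 13 Myrf UMIs where the ratio gives 0.659, and pericyte-like and endothelial-like cells 2 each where it gives 0.0549. Mutant progenitor-like cells held 17 where it gives 18.4, and astrocyte-like cells 0 where it gives 2.32.

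Tmem98 was also highest in RPE-like cells, but it had a broad lower level in other classes. Control RPE-like cells held 1667 of 3437 Tmem98 UMIs, or 48.5% (46.8 to 50.2%), at 534 CPM (509 to 560). This share was 28.6% under a 5% mitochondrial limit and 73.0% in barcodes with Xist and no Y-linked UMI. Among classes of at least 20 cells the next, melanocyte-like, held 48.3 CPM (29.5 to 74.6), 11.0-fold less. Retinal progenitor-like cells held 31.6 CPM (29.2 to 34.1), neurogenic-like cells 30.8 (26.9 to 35.1) and mesenchyme-like cells 26.6 (24.2 to 29.1), of which the first 2 did not differ beyond counting error. Pericyte-like and endothelial-like cells followed at 23.7 CPM (13.6 to 38.6) and 23.2 CPM (18.1 to 29.3). Both levels lay just below the interval of the mesenchyme-like level, and their own intervals overlap it. Lower down came amacrine-like cells at 11.2 CPM (6.95 to 17.2) and photoreceptor-like cells at 9.85 CPM (6.86 to 13.7), and red blood-like cells held 2.52 CPM (0.520 to 7.37). Set against the same 4 RPE transcripts, all control barcodes outside the gate held 1770 Tmem98 UMIs against 229 at the ratio of the RPE-like cells, 7.72 times as many, and mesenchyme-like cells held 19.0 times as many.

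**Figure D1:**
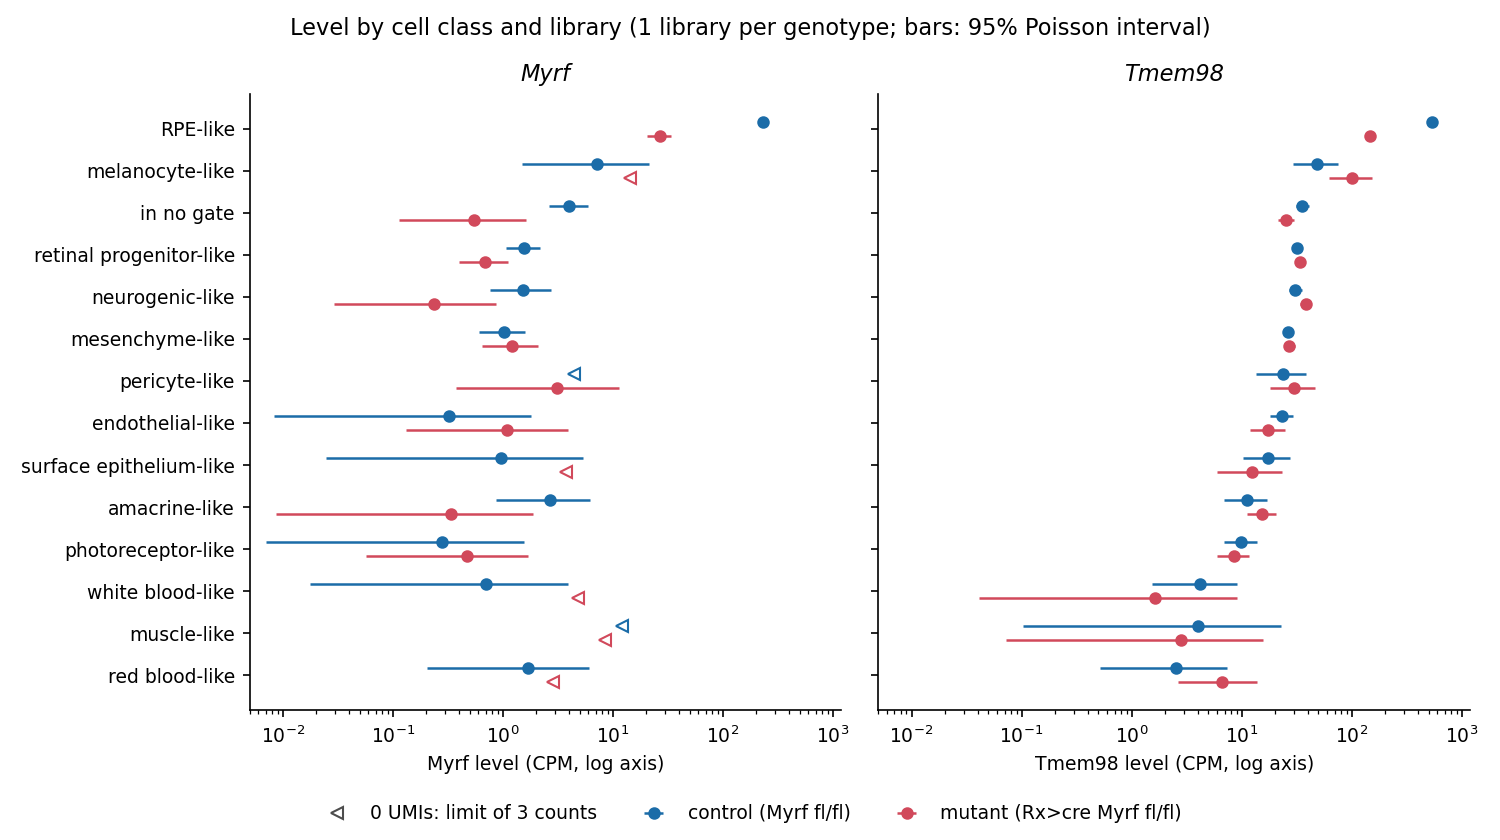
Level of Myrf and of Tmem98 in CPM on a log axis, with exact Poisson 95% intervals, in the barcodes of no class and in each gated class with at least 20 cells in each library, with open triangles at the limit of 3 counts where no UMI was found. RPE-like cells stand highest for both genes in both libraries, at 234 and 26.7 CPM for Myrf and 534 and 148 CPM for Tmem98, and the other control classes shown lie at 7.25 CPM or lower for Myrf and at 48.3 CPM or lower for Tmem98.

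The gene deleted in the mutant was checked first. Over all kept barcodes, 834 control UMIs and 106 mutant ones were of Myrf. In RPE-like cells it gave 731 UMIs, or 234 CPM, in control and 64 UMIs, or 26.7 CPM (20.6 to 34.1), in mutant, which is 8.77-fold lower (log2 ratio -3.09, conditional Poisson interval -3.52 to -2.76). A UMI was seen in 47.4% of control (42.3 to 52.5%) and 24.6% of mutant RPE-like barcodes (18.5 to 31.6%), and photoreceptor-like cells, which should lack Myrf, showed 0.102% and 0.185% at medians of 3145 and 3414 UMIs. With each barcode thinned to 1000 UMIs, the RPE-like shares were 19.1% of 325 and 2.40% of 167 barcodes. The Myrf level of the mutant library thus lay on the side that its label gives.

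What remained in the mutant was spread thinly over cells. In control RPE-like barcodes 203 had no Myrf UMI, 46 had 1, 31 had 2, 29 had 3 and 77 had at least 4, with a highest count of 17. In mutant ones 135 had none, 32 had 1, 6 had 2, 5 had 3, and the highest count was 5. The share with at least 2 UMIs was 35.5% (30.7 to 40.5%) in control and 6.70% (3.51 to 11.4%) in mutant. The mutant level remained 38.5-fold above that of mutant progenitor-like cells (0.694 CPM), and RPE-like cells still held 60.4% (50.4 to 69.7%) of all Myrf UMIs of that library, a share that was 27.7% under a 5% mitochondrial limit, 32.1% with a gate without pigment genes and 33.3% after thinning to 1000 UMIs.

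Tmem98 was also lower in the mutant, by less than its partner. In RPE-like cells it gave 1667 UMIs, or 534 CPM, in control and 355 UMIs, or 148 CPM (133 to 164), in mutant, which is 3.61-fold lower (log2 -1.84, -2.02 to -1.68). Yet 66.8% of control (61.9 to 71.5%) and 68.7% of mutant barcodes (61.4 to 75.4%) held a UMI, with the mutant barcodes the deeper ones, and 50.8% and 48.0% held at least 2. High counts were mostly seen in the control: 66 of 386 control barcodes held 10 or more Tmem98 UMIs, up to 29, against 2 of 179 mutant barcodes, up to 11. Thinned to 1000 UMIs, the shares were 35.4% and 16.2%, while photoreceptor-like cells stood at 0.830% and 0.846%. Among the 8896 genes with at least 50 UMIs over both libraries in RPE-like cells, Myrf stood at place 48 and Tmem98 at place 108 from the lowest ratio.

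**Figure D2:**
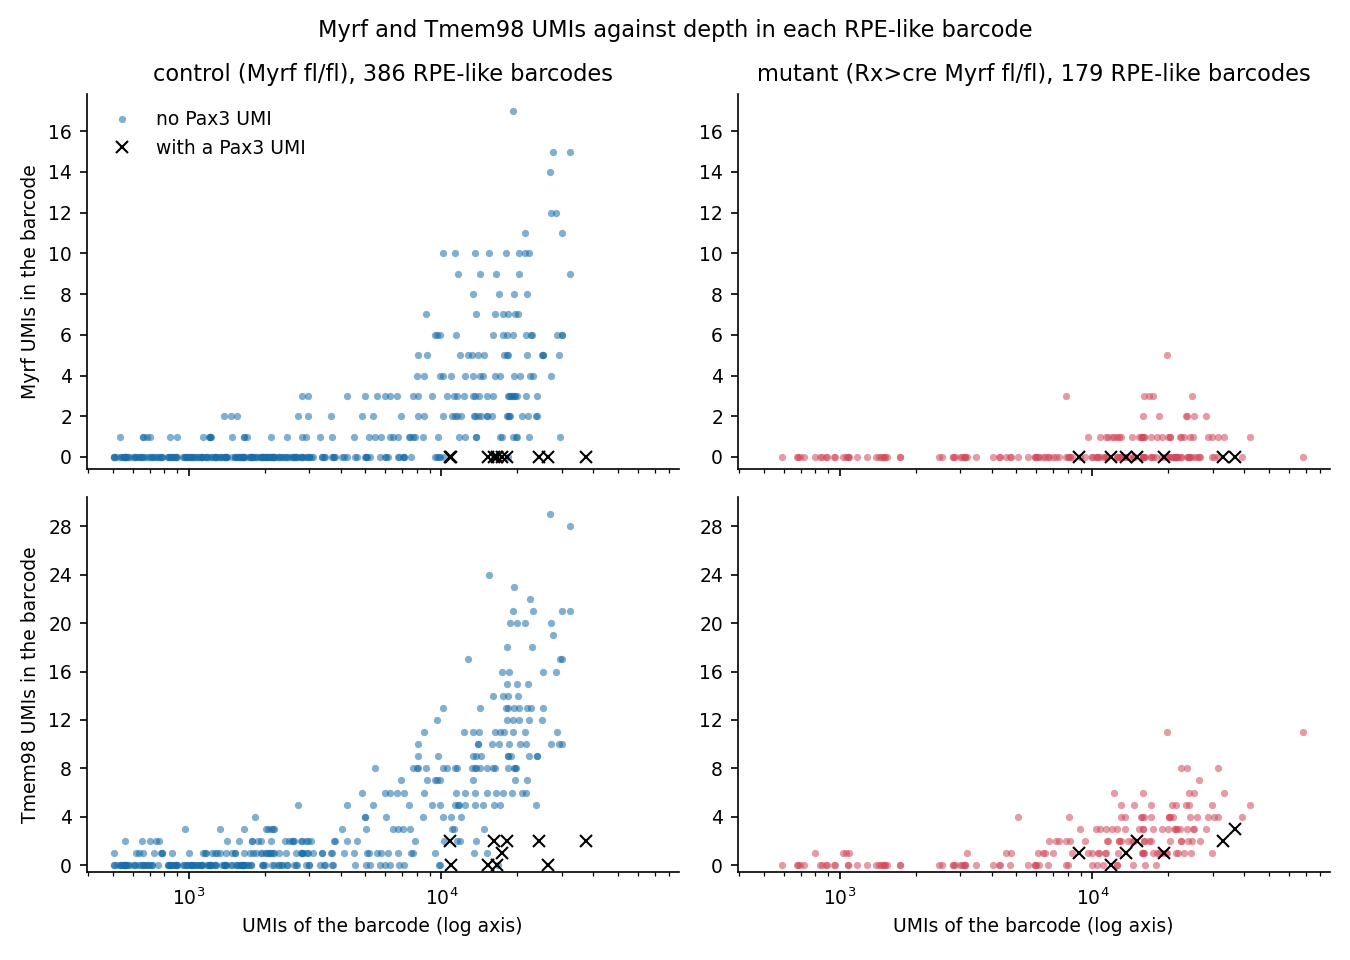
Each point is 1 RPE-like barcode, with its total UMIs on a log axis and its Myrf UMIs (upper panels) or Tmem98 UMIs (lower panels) on the vertical axis, for the control and the mutant library, with crosses for barcodes that hold a Pax3 UMI. Control barcodes reach 17 Myrf and 29 Tmem98 UMIs and mutant barcodes 5 and 11, and all crosses lie at 0 Myrf UMIs.

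Because the mutant RPE-like barcodes were deeper, levels were also read in bins of depth. The control Myrf level was 145, 112, 157, 304 and 233 CPM in barcodes of up to 2000, 2000 to 4000, 4000 to 8000, 8000 to 16000 and more than 16000 UMIs. In the mutant it was 0 in the first 2 bins (28 and 12 barcodes) and 22.9, 26.3 and 28.3 CPM in the others. In the 3 deeper bins the log2 ratio was -2.72, -3.48 and -2.99. Of barcodes over 16000 UMIs, 88.0% held Myrf in control and 41.5% in mutant.

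Tmem98 gave 410, 416, 470, 568 and 549 CPM in the same control bins and 129, 28.1, 138, 172 and 142 CPM in the mutant bins, the second of which held 1 UMI. The log2 ratio was -1.66 in the shallowest and -1.94 in the deepest bin. Above 16000 UMIs Tmem98 was found in 96.4% of control and 96.9% of mutant barcodes, and up to 2000 UMIs in 31.1% and 14.3%. The control levels of both genes were lower below 4000 UMIs than above 8000, and mesenchyme markers differed between the bins. In control barcodes with Myrf they summed to 6227 CPM up to 2000 UMIs and to 451 CPM over 16000 UMIs. In those without Myrf they summed to 6742 CPM up to 2000 UMIs, 1080 CPM at 8000 to 16000 and 4936 CPM over 16000. No mutant bin exceeded 773 CPM. Their part in the levels was not tested.

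**Figure D3:**
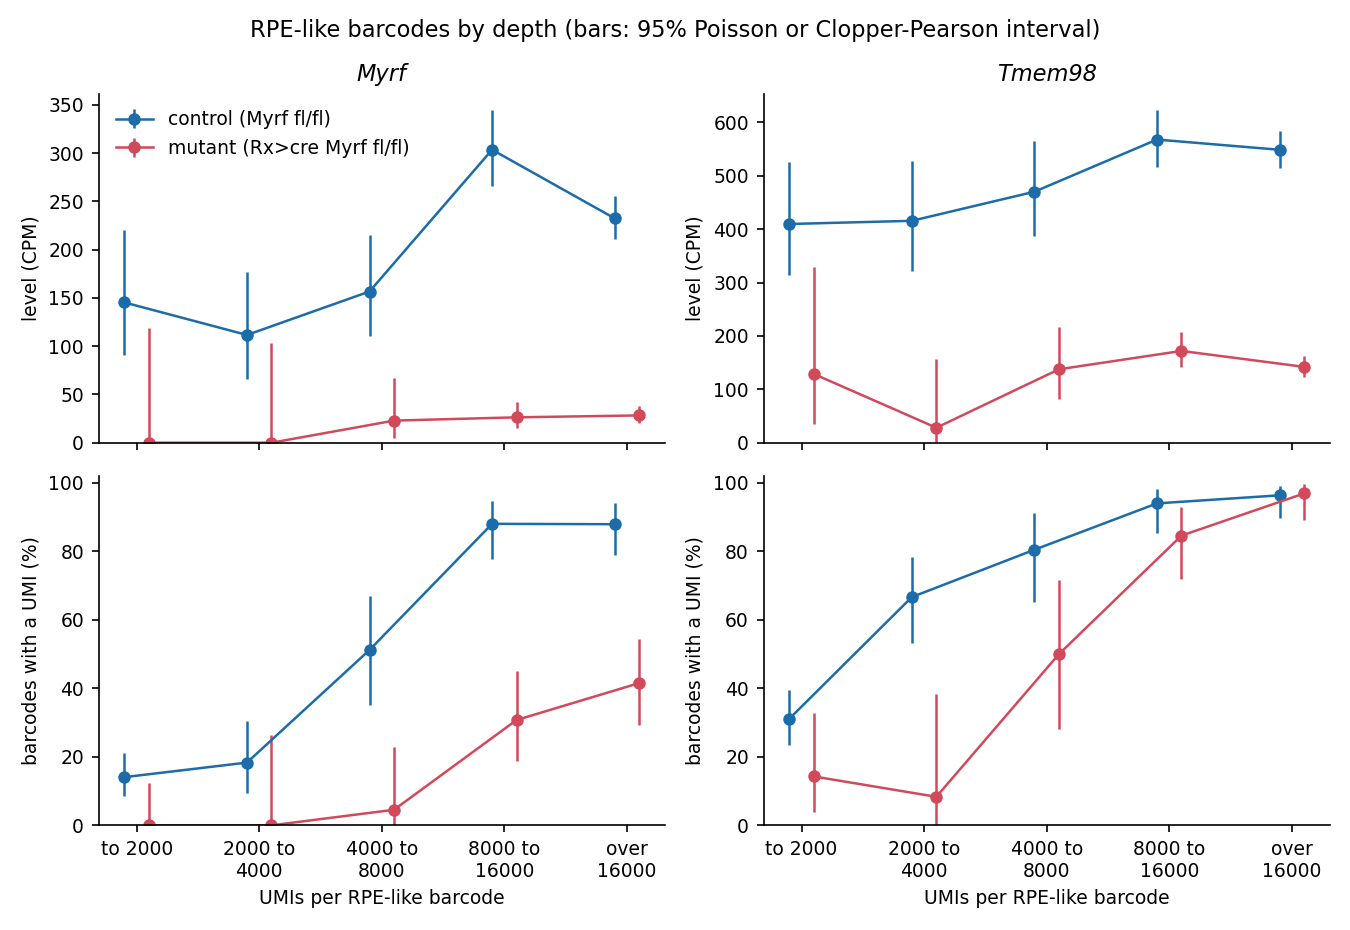
Myrf and Tmem98 in RPE-like barcodes of 5 depth bins for each library, with levels in CPM (exact Poisson 95% intervals) in the upper panels, percent of barcodes with a UMI (exact binomial 95% intervals) in the lower ones, and points joined by lines. The control level lies above the mutant level in every bin for both genes, and the mutant Myrf level is 0 in the 2 shallowest bins.

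Outside the RPE-like cells, Tmem98 differed little between libraries in sum, while single classes lay on either side: all other barcodes together held 26.9 CPM in control (1770 UMIs) and 28.4 CPM in mutant (1759 UMIs), a log2 ratio of 0.07 (-0.02 to 0.17). Mesenchyme-like cells, which come from neural crest and mesoderm and not from the eye field, held 26.6 and 27.1 CPM (log2 0.03, -0.19 to 0.24). Retinal progenitor-like cells, which do come from the eye field, held 31.6 and 34.1 CPM (log2 0.11, -0.04 to 0.26). Neurogenic-like cells were slightly higher in the mutant, at 30.8 and 38.1 CPM (log2 0.30, 0.06 to 0.56), and melanocyte-like cells held 48.3 and 99.8 CPM from 20 and 21 UMIs (log2 1.03, 0.09 to 2.01). Pax3 was found in 16 of the 39 control and 8 of the 28 mutant melanocyte-like barcodes, and Otx2 was at 70.1 and 95.1 CPM in them, and the part of RPE transcripts in their Tmem98 level was not tested. Barcodes of no class were lower in the mutant, at 35.7 and 25.4 CPM (log2 -0.47, -0.81 to -0.18).

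Myrf outside the RPE-like cells was 2.31-fold lower in the mutant, with 103 and 42 UMIs. Summed over classes, these control UMIs were close in number to the RPE ratio described above, while single classes lay on either side of it. Progenitor-like cells went from 32 to 17 UMIs, neurogenic-like cells from 11 to 2, and mesenchyme-like cells from 18 to 13, the last at 1.02 and 1.23 CPM.

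**Figure D4:**
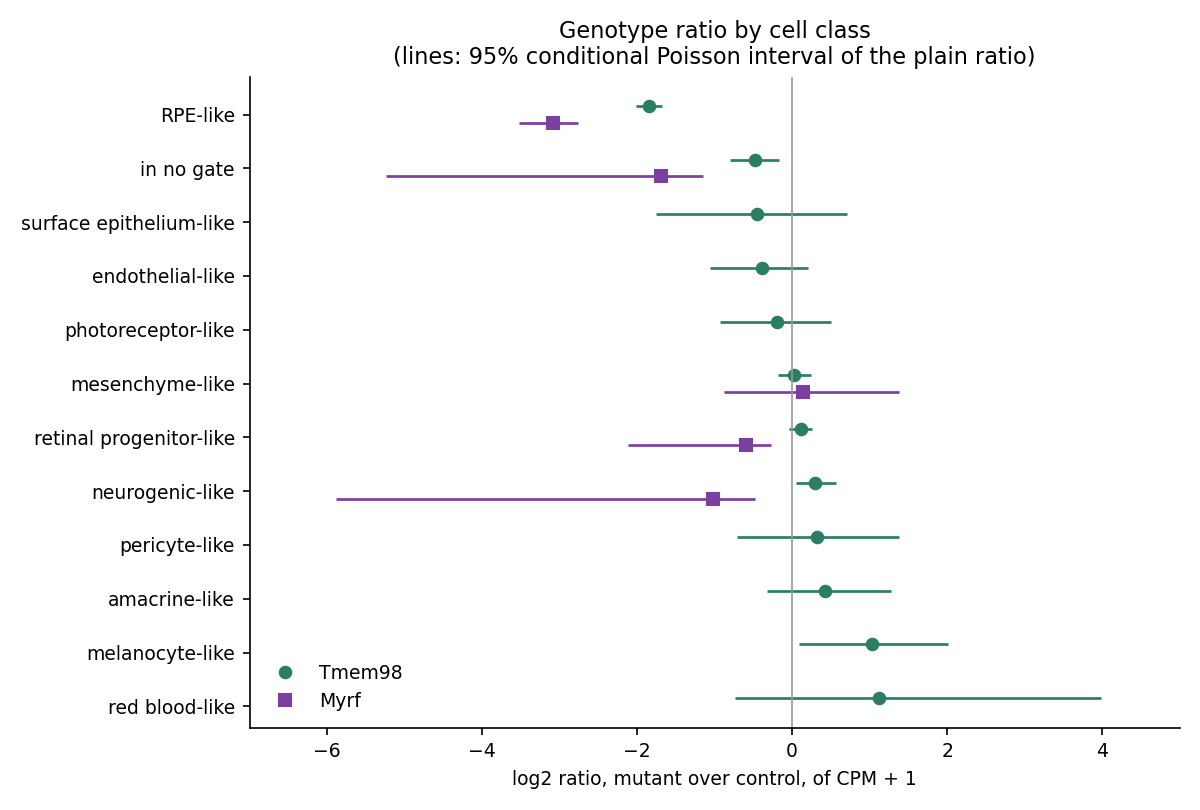
Log2 ratio of mutant over control for Myrf and Tmem98 in each class with at least 10 UMIs of the gene over both libraries, with the conditional Poisson 95% interval of the plain ratio. RPE-like cells lie far left for both genes (-3.09 and -1.84), and the Tmem98 ratios of progenitor-like and mesenchyme-like cells lie near 0. Points use CPM + 1, which draws them toward 0 where levels are low. Myrf in neurogenic-like cells lies at -1.03 although its plain level was 6.37-fold lower in the mutant.

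Both pools held barcodes with Xist and barcodes with Y-linked transcripts, in unequal parts: 7.14% of control and 70.5% of mutant barcodes held Xist with no Y-linked UMI, and 51.3% and 14.0% the reverse. Among RPE-like barcodes with Xist only, Myrf was at 238 and 27.4 CPM (log2 -3.08) and Tmem98 at 518 and 142 CPM (log2 -1.86). Among those with Y-linked UMIs only, Myrf was at 260 and 41.6 CPM (log2 -2.62, -3.37 to -2.0) and Tmem98 at 550 and 175 CPM (log2 -1.65, -2.0 to -1.33). Both genes were lower in the mutant in each kind of barcode.

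Within control RPE-like barcodes the 2 transcripts were found together more often than apart, while most mutant barcodes with either one held Tmem98 alone. In the control 164 barcodes held both, 19 Myrf alone, 94 Tmem98 alone and 109 neither. In the mutant 43 held both, 1 Myrf alone, 80 Tmem98 alone and 55 neither. Tmem98 was thus seen in 89.6% of control barcodes with Myrf (84.3 to 93.6%) and in 46.3% of those without (39.3 to 53.4%), but the former had a median of 13614 UMIs and the latter of 1743. The difference between the shares was 43.3 points in control and 38.5 in mutant. After thinning to 1000 UMIs it was -3.86 points (-16.7 to 10.4) in control and -16.6 (-23.2 to 43.9) in mutant, the latter with 4 barcodes with Myrf, and both intervals include 0. After thinning to 4000 UMIs the control shares were 89.2% with Myrf and 69.7% without. Their difference was 19.6 points, or 14.5 without the Pax3 barcodes. The mutant difference was 18.7 points, from 12 of 18 barcodes with Myrf (41.0 to 86.7%) and 58 of 121 without (38.8 to 57.2%). These mutant intervals overlap.

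The Tmem98 level was higher at higher Myrf counts in control RPE-like barcodes, from 272 CPM (234 to 315) at no Myrf UMI to 480 (407 to 562) at 1, 599 (544 to 658) at 2 or 3 and 636 (595 to 679) at 4 or more. The median depths of these groups were 1743, 4821.5, 12130.5 and 17989 UMIs. Without the Pax3 barcodes, the control level at no Myrf UMI was 360 CPM (308 to 419). The log2 difference between control barcodes with and without Myrf then went from 1.15 (0.93 to 1.38) to 0.75 (0.52 to 0.98). In the mutant the Tmem98 level was 133, 177 and 138 CPM at 0, 1 and 2 or 3 Myrf UMIs, and the single barcode with at least 4 held 557 CPM. With the control barcodes of at least 4000 UMIs thinned to that number, which leaves out 135 of up to 2000 and 60 of 2000 to 4000 UMIs, Tmem98 was at 645 CPM in the 102 barcodes with Myrf and 407 CPM in the 89 without (log2 0.66, 0.36 to 0.96). Without the Pax3 barcodes the second value was 446 CPM (log2 0.53, 0.23 to 0.84). Thinned mutant barcodes gave 250 CPM in 18 with Myrf and 157 CPM in 121 without (log2 0.67, -0.16 to 1.43), an interval that includes no difference.

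In the deepest control bin the gap rested on few cells. In control barcodes over 16000 UMIs, Tmem98 was at 607 CPM in the 73 with Myrf and 111 CPM in the 10 without. Of those 10, 7 held Pax3, and the 3 left held 273 CPM, which takes the log2 difference from 2.44 to 1.15. The melanocyte markers summed to 4974 CPM in the 10 barcodes and 2129 CPM in the 73, and the mesenchyme markers to 4936 and 451 CPM. In the bin of 4000 to 8000 UMIs, where no barcode held Pax3, the levels were 634 CPM (504 to 787) in 21 barcodes with Myrf and 283 CPM (193 to 399) in 20 without. A melanocyte can lack a Pax3 UMI at this depth. Other markers differed there as well, with the mesenchyme markers at 1593 and 3083 CPM and Sox10 at 30.9 and 229.7 CPM, and their part in the Tmem98 difference was not tested. In barcodes of up to 2000 UMIs the order was the other way, 183 CPM in 19 against 448 CPM in 116, with 4 UMIs behind the first value.

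**Figure D5:**
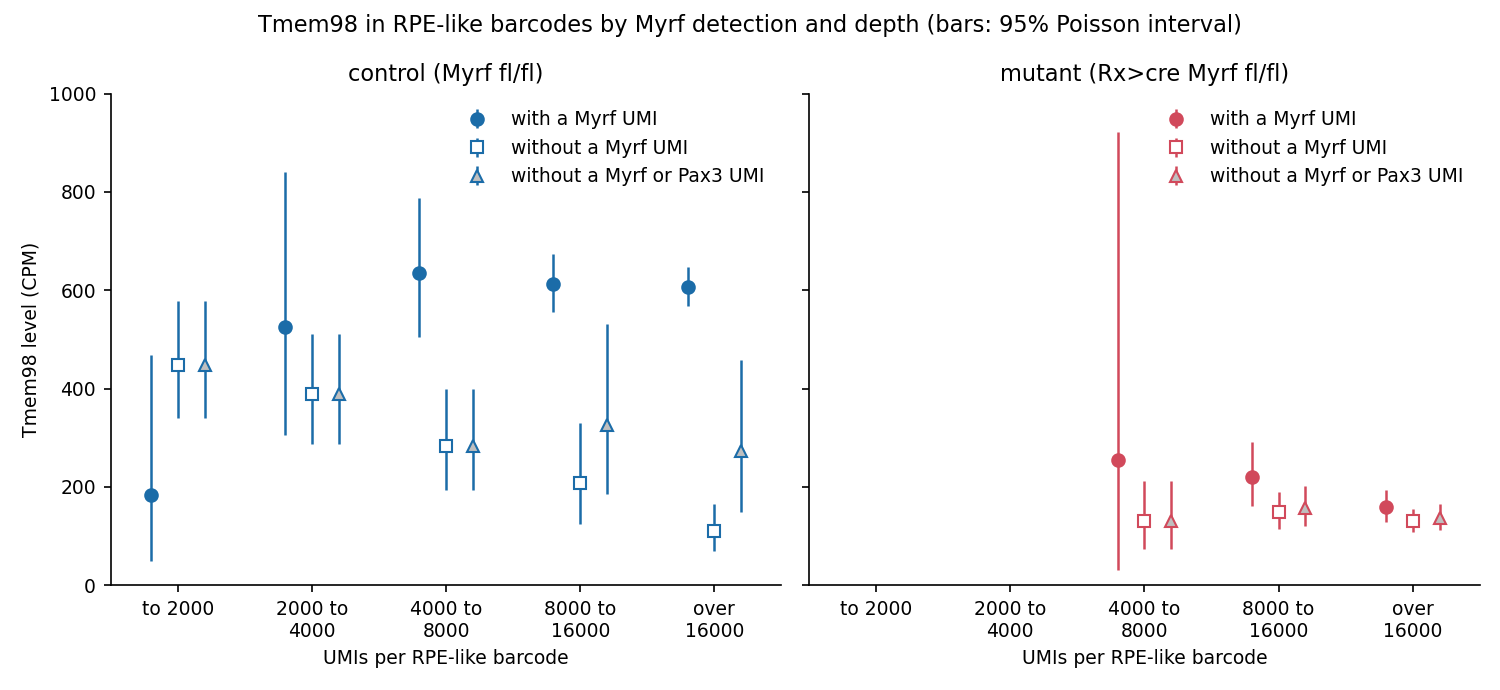
Tmem98 level in CPM, with exact Poisson 95% intervals, by UMIs per barcode, in RPE-like barcodes with a Myrf UMI (filled circles), without one (open squares) and without either a Myrf or a Pax3 UMI (triangles), for each library, where the mutant is shown from 4000 UMIs because no shallower mutant barcode held Myrf. Over 16000 UMIs the control levels are 607, 111 and 273 CPM, and in the shallowest control bin the order of circles and squares is the other way.

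The same split was made for 9 other genes in the thinned control barcodes without Pax3. Wfikkn2, a secreted inhibitor of growth factors of the TGF-beta family, was higher with Myrf (409 against 247 CPM, log2 0.73, 0.33 to 1.14), as were Upk3b, a uroplakin membrane protein (414 against 307 CPM, log2 0.43, 0.06 to 0.81), and Otx2, a homeobox factor needed for RPE identity (814 against 620 CPM, log2 0.39, 0.13 to 0.65). Pax6, an eye field factor, was lower with Myrf (73.5 against 133 CPM, log2 -0.85, -1.58 to -0.14). The differences of Rgr, an opsin-like protein of the visual cycle (log2 0.04), Lhx2 (log2 0.01), Ermn, an actin-binding protein of myelin (log2 0.22), Mitf, the master factor of pigment cells (log2 -0.30), and Sox10 (log2 -0.32) had intervals that include 0.

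Between genotypes these genes moved by unlike amounts in RPE-like cells. Rgr went from 1142 to 5.84 CPM, Upk3b from 334 to 2.92 CPM and Wfikkn2 from 303 to 16.7 CPM (log2 -4.11), each with a lower ratio than Myrf. Ermn went from 189 to 44.6 CPM (log2 -2.06, -2.39 to -1.78), close to Tmem98. These 4 genes and Sox10 had been picked because earlier results of these data showed them lower. Of the early RPE factors, Mitf held 200 and 181 CPM (log2 -0.14, -0.32 to 0.04), Otx2 680 and 522 CPM (log2 -0.38), Lhx2 151 and 209 CPM (log2 0.47) and Pax6 81.7 and 123 CPM (log2 0.59).

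Of 9 known partners and regulators of MYRF or TMEM98, 4 reached 50 UMIs in RPE-like cells. Past 2-fold, 1 was lower, where 3.99% of all 8896 measured genes were, and 1 was higher, where 1.89% were, and their median log2 ratio was -0.23 against -0.01 over all. At 1.5-fold the counts were 2 and 1 against backgrounds of 9.99% and 6.31%, and with a minimum of 20 UMIs they were 1 and 1 against 4.71% and 2.76%. The lower one was Sox10, which acts with MYRF on myelin genes (105 and 22.5 CPM, log2 -2.17, -2.66 to -1.80). Without the Pax3 barcodes Sox10 was at 85.7 and 9.73 CPM (log2 -3.01, -3.84 to -2.51), since those barcodes held 392 and 232 CPM of it. The higher one was Frat2, a GSK3-binding protein of the Wnt pathway that also binds TMEM98 (8.33 and 20.4 CPM, log2 1.2, 0.58 to 2.04). Zfp24, a zinc finger factor of oligodendrocyte maturation, held 57.6 and 37.9 CPM (log2 -0.59, -0.98 to -0.23), and Fbxw7, the ubiquitin ligase part that marks the cleaved MYRF fragment for breakdown, 38.1 and 41.7 CPM (log2 0.13, -0.27 to 0.53). Myrfl, the paralog of Myrf, and the oligodendrocyte factors Olig1 and Nkx2-2 had no UMI in RPE-like cells of either library, Olig2 had 2 and 1, and Zfp488 had 1 and 0.

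Of 5 further genes linked to small eyes or allied eye disease, only Mfrp, a frizzled-related membrane protein of the RPE, reached 50 UMIs, at 18.3 and 22.5 CPM (log2 0.29, -0.26 to 0.87). C1qtnf5, which shares a transcript with Mfrp, had none, and counts of such overlapping genes are uncertain. Prss56, a secreted serine protease, had 1 and 9 UMIs in RPE-like cells and its highest level in retinal progenitor-like cells (62.7 and 144 CPM). Crb1, a cell polarity protein, was also highest there (60.5 and 72.8 CPM), and Best1, a chloride channel of mature RPE, had 4 and 3 UMIs.

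The measured genes nearest to each locus were read in the same RPE-like cells. Around Myrf, Tmem258, 0.448 kb away, was at 185 and 311 CPM (log2 0.74, 0.59 to 0.91), Fen1 was at 14.4 and 16.3 CPM, and Fads1, a fatty acid desaturase, was at 107 and 69.2 CPM (log2 -0.62, -0.90 to -0.35). Sdhaf2, Cpsf7 and Tmem216 on the other side had intervals that include 0. Around Tmem98, Myo1d, an unconventional myosin 30.2 kb away, was at 37.5 and 20.9 CPM (log2 -0.82, -1.35 to -0.36), Psmd11 at 109 and 134 CPM (log2 0.30) and Zfp207 at 78.5 and 87.2 CPM. Farther off on the other side, Ccl12, a chemokine of macrophages, had 51 and 0 UMIs, Lig3 a log2 ratio of -0.82 and Zfp830 of 0.50. White blood markers moved in the same direction as Ccl12 in RPE-like cells, 182 and 45.5 CPM summed over 9 genes, and their part in it was not tested.

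Likeness of pattern was taken as Pearson's r of log2(CPM + 1) across the control classes of at least 50 cells, 12 classes from 1 library that share its depth, with 6967 genes compared. With these gates and this measure, the genes most like Myrf were Car12 (r = 0.977), Gm33489 (0.968), Ptgds (0.962), Mfrp (0.951) and Prkcq (0.951). Those most like Tmem98 were Gprc5b (0.970), Bdh2 (0.936), Tbcel (0.915), Rdh10 (0.898) and Bsg (0.896). With Spearman's correlation 1 of the 5 stayed for each member, and with clusters in place of gates 0 stayed for Myrf and 3 for Tmem98, so the lists depend on these choices. The 2 members were less alike (r = 0.779), with Tmem98 at place 117 for Myrf and Myrf at place 156 for Tmem98. In the mutant, over 11 classes and 5892 genes, r between them was 0.778, and the leading genes were Sytl2, Art5, Gm4876, Oca2 and Gsx2 for Myrf and Epdr1, Slc7a1, Bdh2, Slc20a2 and Alg14 for Tmem98, so that Bdh2 alone stood on the Tmem98 lists of both libraries. In RPE-like cells, of the control genes nearest to Myrf, Ptgds (log2 -1.08) and Car12 (-0.89) were lower in the mutant and Gm33489 (0.40) higher, and the intervals of Prkcq (-0.28, -0.63 to 0.05) and Mfrp (0.29) include 0. Of those nearest to Tmem98, Rdh10, a retinol dehydrogenase, had the lowest ratio (log2 -2.40), followed by Gprc5b (-0.64) and Tbcel (-0.49), while Bsg was at 0.20 and the interval of Bdh2 (0.12, -0.05 to 0.29) includes 0.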

How the data were processed

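Raw UMI counts were used as the authors deposited them, in 1 matrix per library. The submitters' notes name Cell Ranger 7.1.0, Seurat 4.1.1 and mm10, and the matrix header gives software version 3.1.0. The annotation used for counting is not given in the sources used here. Barcodes with at least 200 genes and at most 15% mitochondrial UMIs were kept. Doublet scores came from simulation with scanpy 1.11.5, and the highest scores were left out. Their number was set beforehand at 0.8% per 1000 barcodes, or 11.4% of control and 9.78% of mutant barcodes. With tied scores this took out 11.6% and 10.1%. The study's limit of 2000 counts would leave out most barcodes (80.2% and 92.1% are deeper) and was run as an alternative. Barcodes were gated into 20 classes by the mean of scaled marker levels (at least 0.4, at least 3 markers, 1.2 times the next class except between RPE and melanocyte), and 87.0% and 89.7% entered a class.

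UMIs were summed per class and library. Levels carry exact Poisson, shares exact Clopper-Pearson and ratios conditional Poisson 95% intervals (scipy 1.17.1), and log2 ratios use CPM + 1. The ratio code was tested on simulated data. No p-value was computed. Members, markers and lists were chosen with earlier results of these data known. Named genes are the members, both lists, a panel of 9 genes, the 5 nearest in pattern and the 3 nearest neighbours on each side with at least 50 UMIs. Alternatives changed the doublet, depth, mitochondrial and gate settings, the use of clusters, and the kind of barcode by Xist and Y-linked transcripts. They also changed the fold, the count minimum, the value added to CPM, the total behind CPM and the kind of correlation. Leaving out the Pax3 barcodes or the shared barcodes was chosen after seeing the data.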

Additional observations from a re-analysis of the deposited data

Results flagged for a closer look

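Tmem98 was lower in mutant than in control RPE-like cells (log2 ratio -1.84) and higher in mutant neurogenic-like cells (log2 ratio 0.30, counting interval 0.06 to 0.56), so the one library of each genotype moved in opposite directions in the 2 classes. With 1 library per genotype the difference was not tested.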

How the results depend on the processing

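No paired analysis was possible because each genotype has 1 library and no test was made. Under the settings named in the methods, 82 recomputed values stayed within their counting interval or within 1.5 times a count, 41 moved further and 3 changed sign. The cause of these shifts was not tested. Myrf and Tmem98 were lower in mutant RPE-like cells under every setting run, although under the 2000 UMI limit the Myrf interval includes no difference (upper bound 0.18). Without barcodes that both libraries hold and without Pax3 barcodes, 2 settings chosen after seeing the data, the ratios, co-detection differences and RPE-like shares of the members over all depths stayed within that. The Sox10 ratio and the Tmem98 level split by Myrf, over all depths and above 16000 UMIs, did move without the Pax3 barcodes.

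The changes of sign concern the share of barcodes with Tmem98 among those with Myrf minus that among those without: 43.3 points in control and 38.5 points in mutant. It became -19.2 points in control under the 2000 UMI limit, and -3.86 in control and -16.6 in mutant after thinning to 1000 UMIs. It was 33.1 in control under a 5% mitochondrial limit, and in mutant 18.8 at 4000 or more UMIs, 18.4 in barcodes with Xist only and 20.2 in those with Y-linked UMIs only.

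The 2000 UMI limit left few mutant RPE-like barcodes and no mutant Myrf UMI in them, with log2 ratios of -7.34 for Myrf (not a bound) and -2.16 for Tmem98, and -0.42 for Tmem98 in mesenchyme-like cells. The Tmem98 ratio was -1.62 after thinning, and in barcodes with Y-linked UMIs only Myrf was at -2.62 and Tmem98 at -1.65.

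The RPE-like share of all Myrf UMIs in control was 56.4% under the 2000 UMI limit, 72.8% under the 5% mitochondrial limit, 92.4% at 4000 or more UMIs, 76.3% after thinning, 79.5% with a gate without pigment genes and 95.4% in barcodes with Xist only. In mutant it was 0% under the 2000 UMI limit, where 1 Myrf UMI was left in the library, 27.7% under the mitochondrial limit, 33.3% after thinning and 32.1% with the gate without pigment genes. The same share for Tmem98 in control was 45.5% with doublets kept, 37.6% under the 2000 UMI limit, 28.6% under the mitochondrial limit, 52.9% at 4000 or more UMIs, 34.9% after thinning, 42.6% with the gate without pigment genes, 50.2% with clusters, and 73.0% and 41.7% in barcodes with Xist only and Y-linked UMIs only. In mutant it was 4.88% under the 2000 UMI limit, 7.57% under the mitochondrial limit, 19.4% at 4000 or more UMIs, 7.52% after thinning, 8.85% with the gate without pigment genes, and 15.1% and 22.3% in barcodes with Xist only and Y-linked UMIs only.

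Of the 5 genes most like Myrf in control, 1 stayed with Spearman's correlation and 0 with clusters, and of the 5 most like Tmem98, 1 and 3 stayed. At 1.5-fold, 2 listed genes were lower instead of 1.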

Other observations

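The 1626 control barcodes that entered no class held 25 Myrf UMIs (4.04 CPM) and 221 Tmem98 UMIs (35.7 CPM), and the 1116 mutant ones held 3 (0.553 CPM) and 138 (25.4 CPM). Their Myrf count per 1000 UMIs of Rgr, Rlbp1, Rpe65 and Ttr was 28.8 in control and 15.7 in mutant. Among small classes seen in the control library alone, 130 lens-like cells held 10 Tmem98 UMIs (39.0 CPM) and 1 Myrf UMI, and 12 ciliary margin-like cells held neither gene. The floor of 3 counts lies at 23.9 CPM in these 12 cells and the upper interval bound at 29.4 CPM. Their 0 therefore does not show absence of either gene.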
